A study of Sus scrofa with 12 samples.

Results

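The let-7 and miR-98 family was followed across the small RNA libraries of 6 porcine ovaries. Members were the mature miRNAs whose name starts with let-7 or is miR-98, with or without an arm suffix, and 11 of the 457 listed mature miRNAs met this rule. Another 63 listed names, from the miR-9800s upwards, begin with the same letters as miR-98 but carry other numbers. None of the 63 had the family's seed, together they took at most 0.0181% of a library, and they were left out. The left ovaries came from sows of a single commercial farm, taken 4 days after delivery number 4 and frozen. Ovaries ZD2, ZD3 and ZD12 were from sows with small litters (SLS, labelled with 8.48 ± 0.53 piglets per litter), and ZD5, ZD7 and ZD8 were from sows with large litters (LLS, labelled with 16.19 ± 0.43). The error of these litter values is not named beside them, and the study's methods give results as mean ± SEM. No breed, age or treatment that separates the groups is named in the labels. Each ovary gave 1 total RNA library and 1 small RNA library, so the replicates are separate sows and whole organs.

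The let-7 miRNAs are cut from hairpin precursors by Drosha and Dicer, and the arm that remains in an Argonaute protein represses mRNAs that carry a match to its seed. They are known as brakes on growth and on the embryonic programme, through targets such as HMGA2, LIN28B and the RAS genes. LIN28 proteins block the maturation of the precursors, and the family is among the abundant miRNAs of the mammalian ovary.

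The members' sequences are shown because they define which members share a seed and how little separates the others. They are given 5′ to 3′ as deposited in the miRNA table, with T for U, and capitals mark the seed, bases 2 to 8.
let-7a: tGAGGTAGtaggttgtatagtt
let-7c: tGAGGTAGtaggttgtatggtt
let-7e: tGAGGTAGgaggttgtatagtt
let-7f-5p: tGAGGTAGtagattgtatagtt
let-7g: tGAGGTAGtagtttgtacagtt
let-7i-5p: tGAGGTAGtagtttgtgct
let-7d-5p: aGAGGTAGtaggttgcatagtt
miR-98: tGAGGTAGtaagttgtattgtt
let-7d-3p: cTATACGAcctgctgcctttct
let-7f-3p: cTATACAAtctattgccttcc
let-7i-3p: cTGCGCAAgctactgccttgct

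These 8 members of the 5p arm shared the seed GAGGTAG, and no other miRNA of the table had it. Each 3p member had a seed found in no other miRNA of the table, which was TATACGA for let-7d-3p. For let-7f-3p it was TATACAA, and for let-7i-3p it was TGCGCAA. Outside the seed the differences were few. Counted from 1 at the 5′ end, let-7c differed from let-7a by A19G alone, let-7e by T9G and let-7f-5p by G12A. let-7d-5p differed from let-7a by T1A and T16C, let-7g by G12T and T18C, and miR-98 by G11A and A19T. let-7i-5p was listed with 19 nt against 22 nt for the other 5p members and differed from let-7a over those bases by G12T, A17G, T18C and A19T. How many mismatches the authors allowed when reads were assigned is not given in the sources used here, so reads could have been split between members that are 1 base apart.

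On the Sscrofa11.1 assembly the members came from 10 hairpins on 6 chromosomes. MIRLET7A-2, MIRLET7F-2 and MIRLET7D lay together on the plus strand of chromosome 3, from chr3:43465667-43465758 over chr3:43466034-43466130 to chr3:43468501-43468596, a span of 2930 nt outside annotated genes. MIR98 (chrX:46302381-46302460) and MIRLET7F-1 (chrX:46303245-46303327) lay on the minus strand in introns of HUWE1, a ubiquitin ligase gene, within 947 nt. MIRLET7G (chr13:34406140-34406219, minus strand) lay in an intron of WDR82, and MIRLET7C (chr13:181303209-181303302, plus strand) in an intron of LOC106508546, 646 nt after the MIR99A hairpin. MIRLET7E (chr6:58332042-58332121, minus strand) lay between MIR99B and MIR125A, at gaps of 89 and 396 nt. MIRLET7A-1 (chr9:49152586-49152665, minus strand) had MIR100 at 5243 nt, and MIRLET7I (chr5:27252802-27252886, plus strand) had no miRNA hairpin on its strand within 10 kb. Since let-7a and let-7f-5p are each made from 2 hairpins with the same mature sequence, their reads could not be assigned to a locus.

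Library totals were recovered from the deposited values, with the smallest value above 0 of a library taken as 1 read. By this reading the small RNA libraries held between 3537619 and 9854086 reads, of which 97.6% to 98.7% lay on listed miRNAs. The total RNA libraries, read in the same way from the FPKM and lengths of miRNA genes, held between 32272803 and 60903268 reads, with ZD8 the lowest. ZD8 stood apart from the other ovaries in its marker genes. Its summed level of 6 luteal markers (STAR, CYP11A1, HSD3B1, SCARB1, LHCGR and PTGFR) was 123 FPKM, against 9167 to 12191 FPKM in the other ovaries. All 6 luteal markers were above 1 FPKM in every ovary, and CYP19A1, the aromatase gene of large follicles, was listed at 0 in 5 ovaries. In whole ovaries, fewer cells of a type and less RNA per cell cannot be told apart, which holds for every level below.

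Together the members took a large part of each small RNA library. The summed share was 8.16% in ZD2, 15.3% in ZD3 and 16.7% in ZD12 of the SLS group. In the LLS group it was 13.5% in ZD5, 11.9% in ZD7 and 16.4% in ZD8. ZD2 was the lowest ovary, at 0.53 times the median of the other 5, and the groups overlapped. The means were 13.4% ± 4.57 (SD, n = 3) in SLS and 13.9% ± 2.29 (SD, n = 3) in LLS, a difference of 0.53 percentage points that lay within the spread of either group. Without ZD2 the SLS mean was 16.0%, above the LLS mean by 2.07 points, and without ZD8 the LLS mean was 12.7%, below the SLS mean by 0.71 points. As a sum over the members, this share was given no test. Over the 6 ovaries the highest share was 2.04 times the lowest, and without ZD2 it was 1.41 times. The most abundant miRNA of the libraries was miR-21-5p in ZD2, ZD3, ZD5 and ZD7 and miR-26a in ZD12 and ZD8, and 5 members stood among the 20 most abundant miRNAs in every library.

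**Figure D1:**
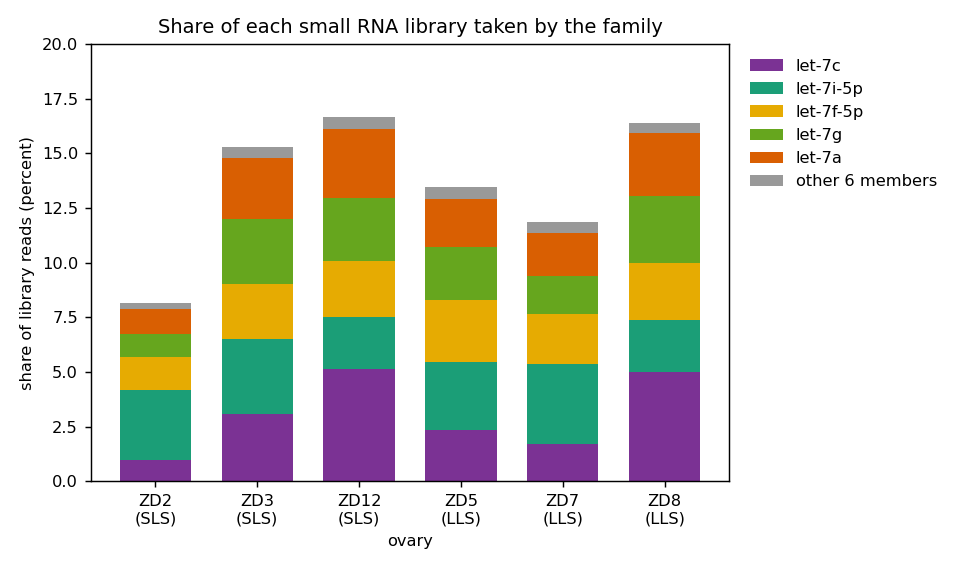
Stacked bars give the percent of each small RNA library's reads taken by let-7c, let-7i-5p, let-7f-5p, let-7g, let-7a and the other 6 members, by ovary. The totals run from 8.16% in ZD2 to 16.7% in ZD12, and the let-7c part is widest in ZD12 and ZD8.

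Levels are in RPM, reads scaled to the library total, with no correction for length, since the listed lengths are 19 to 22 nt. Whether different members were captured and assigned equally well was not tested, so the order of members is that of their reads. By the mean over 6 ovaries the members formed 3 tiers. let-7c, let-7i-5p, let-7f-5p, let-7g and let-7a had means between 23501 and 30473 RPM. let-7e, let-7d-5p and miR-98 had means between 1274 and 1931 RPM. The 3p members had means of 158 RPM for let-7d-3p, 69.0 RPM for let-7f-3p and 23.3 RPM for let-7i-3p. Within the upper tier and within the middle tier the ranges of neighbouring members overlapped, so their order within a tier lay inside the spread between ovaries. Between tiers no ranges overlapped, from the upper tier at 9953 RPM or more to the middle tier at 2730 RPM or less. The 3 members of the lowest tier were also separate from each other, although the lowest let-7d-3p level came near the highest let-7f-3p level (91.8 against 83.2 RPM). The upper tier made up 95.7% to 97.3% of the family's reads.

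**Figure D2:**
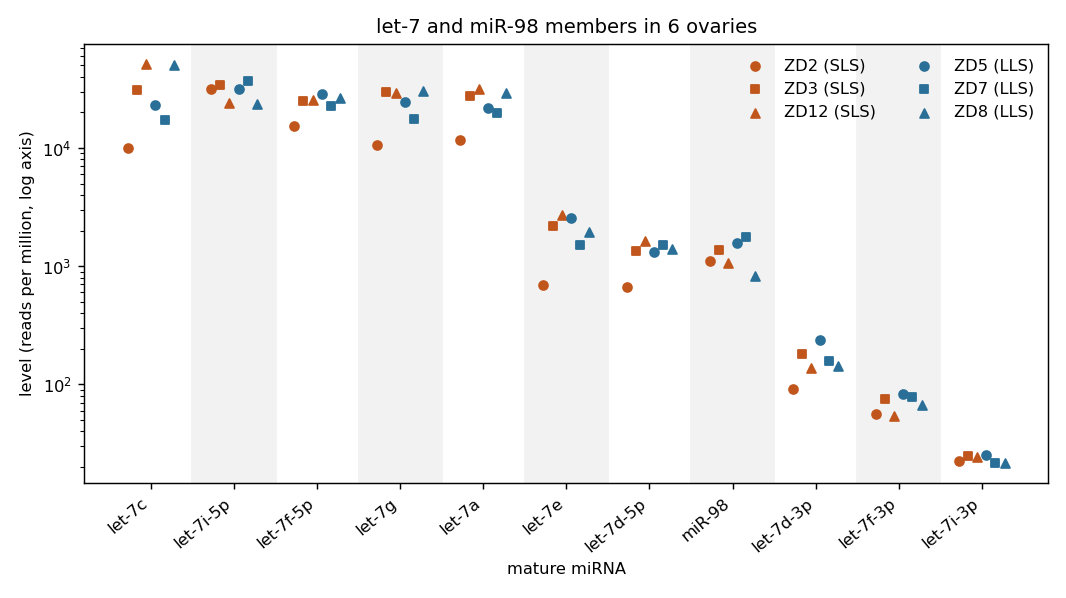
Each point is the level of a member in 1 ovary, in RPM on a log axis, with SLS ovaries in orange and LLS ovaries in blue. The 5 upper members sit between 9953 and 51348 RPM, and the orange circles of ZD2 lie below the other ovaries for 7 of the 11 members.

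let-7c was the member that differed most between ovaries. Its level was 9953 RPM in ZD2, 30967 in ZD3 and 51348 in ZD12, and 23251 in ZD5, 17241 in ZD7 and 50074 in ZD8. ZD12 and ZD8, one ovary of each group, were the 2 highest, and the highest ovary had 5.16 times the lowest (2.98 times without ZD2). let-7i-5p ran the other way, with 31569 RPM in ZD2, 34199 in ZD3 and 23942 in ZD12, beside 31263 in ZD5, 36478 in ZD7 and 23644 in ZD8. Its 2 lowest ovaries were ZD12 and ZD8, and its whole range was 1.54-fold.

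The other upper members were lowest in ZD2. let-7a had 11569, 27630 and 31486 RPM in SLS, for ZD2, ZD3 and ZD12, and 21728, 19610 and 28984 RPM in LLS, for ZD5, ZD7 and ZD8. let-7g had 10564, 29929 and 28934 RPM in SLS and 24258, 17491 and 30514 RPM in LLS, in the same order of ovaries. For both, ZD2 lay under every other ovary and ZD7 was the next lowest. let-7f-5p, read from the chromosome 3 and the X hairpins, had 15361, 24935 and 25494 RPM in SLS and 28474, 22788 and 26268 RPM in LLS. Without ZD2 its range over 5 ovaries was 1.25-fold.

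In the middle tier, let-7e had 698, 2175 and 2730 RPM in the SLS ovaries and 2533, 1516 and 1935 RPM in the LLS ovaries, with ZD2 at 0.32 times the median of the others. let-7d-5p had 668, 1344 and 1629 RPM in SLS and 1326, 1498 and 1390 RPM in LLS, and apart from ZD2 its ovaries lay within 1.23-fold. miR-98 did not have its minimum in ZD2. It had 1094, 1361 and 1054 RPM in SLS and 1559, 1752 and 824 RPM in LLS, so that, like let-7i-5p, it was lowest in ZD8 and highest in ZD7. Among the 3p members, let-7d-3p ran from 91.8 RPM in ZD2 to 239 in ZD5 and let-7f-3p from 54.4 in ZD12 to 83.2 in ZD5. let-7i-3p had the narrowest range, from 21.5 RPM in ZD8 to 25.5 in ZD5, on 87 to 241 reads per library.

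ZD2 was the lowest ovary for 7 of the 11 members, where 26.3% of the 353 tested miRNAs had their lowest value in ZD2. ZD8 was the lowest for 3 members, beside 39.9% of the tested miRNAs. ZD2 also had the highest FPKM of the stromal collagen gene COL1A1 (3002, against 377 to 1057 in the other ovaries), of the smooth muscle actin gene ACTA2 (1098, against 196 to 592) and of the blood marker HBB (314, against 28.5 to 157). COL1A1 and ACTA2 made up most of the sums of their marker lists, 3986 FPKM for 4 stromal markers and 1152 FPKM for 3 smooth muscle markers, both highest in ZD2. The other markers of these lists were not highest there. The stromal markers DCN and PDGFRA and the muscle markers MYH11 and DES were highest in ZD8, and LUM was highest in ZD5 and lowest in ZD2. Of the surface epithelium markers, KRT18, KRT19 and UPK3B were highest in ZD2, at 6.30, 16.4 and 0.152 FPKM. EPCAM, of the same list, was lowest in ZD2, at 0.312 FPKM. The part of these cell types in the low let-7 levels of ZD2 was not tested. The SD over 6 ovaries of log2(RPM + 1) had a median of 0.45 over the members, beside 0.55 over the tested miRNAs. Over the 128 miRNAs with at least 100 RPM in all 6 libraries the median was 0.51. Among the members the SD ran from 0.10 for let-7i-3p to 0.92 for let-7c.

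The comparison of LLS with SLS ovaries asked whether a member's level differed with litter size, and no member was called. Levels were compared as log2(RPM + 1) with limma over all 353 miRNAs that reached 1 RPM in 3 libraries, and all 11 members were among them. A miRNA was called where its p, adjusted by Benjamini-Hochberg, fell under 0.05 and its log2 fold change passed 1 in either direction. Of the tested miRNAs 0 were called (0%), and 0 had an unadjusted p under 0.05. By edgeR's quasi-likelihood test on the recovered reads, 0 were called and 4 had an unadjusted p under 0.05, and by DESeq2 these counts were 0 and 7. Groups that did not overlap were seen for 10 of the 353 miRNAs (2.83%) and for 0 of the 11 members.

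The fitted differences of the members were small beside their errors. The largest was that of let-7d-3p, at 0.41 ± 0.43 (SE) on the log2 scale, followed by let-7f-3p (0.31 ± 0.41), let-7d-5p (0.31 ± 0.41), let-7e (0.28 ± 0.54) and let-7f-5p (0.27 ± 0.40). let-7c was at 0.11 ± 0.68 and let-7i-5p at 0.02 ± 0.40. In this limma fit the adjusted p was 0.997 for every member, and by the exact two-sided permutation test over the 6 ovaries the smallest p of a member was 0.2. With 3 ovaries against 3 that test cannot go below 0.1. 10 members had a value above 0 and 1 (let-7i-3p) below 0, with a median of 0.17, while 48.7% of the tested miRNAs were above 0 and their median was -0.01. Part of this side rested on ZD2. Without it let-7a, let-7c, let-7d-5p, let-7e and let-7g were lower in LLS, by -0.35, -0.55, -0.08, -0.32 and -0.33 on the log2 scale, and no member was called. let-7d-3p, let-7f-3p, let-7f-5p, let-7i-5p and miR-98 stayed above 0 without ZD2, at 0.16, 0.25, 0.030, 0.068 and 0.13. Of these, let-7i-5p was below 0 without ZD12, ZD5 or ZD7, at -0.13, -0.0098 and -0.12, and miR-98 was at -0.036 without ZD7. let-7d-3p was also smaller without ZD5, at 0.19, and let-7e at 0.092. Without ZD8, let-7a, let-7c and let-7g were at -0.065, -0.33 and -0.022. The 95% interval for let-7c reached from -1.45 to 1.68, so a change of 2-fold in either direction could not be told from none. For let-7i-5p, with an interval from -0.90 to 0.94, a change of 2-fold lay outside it.

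**Figure D3:**
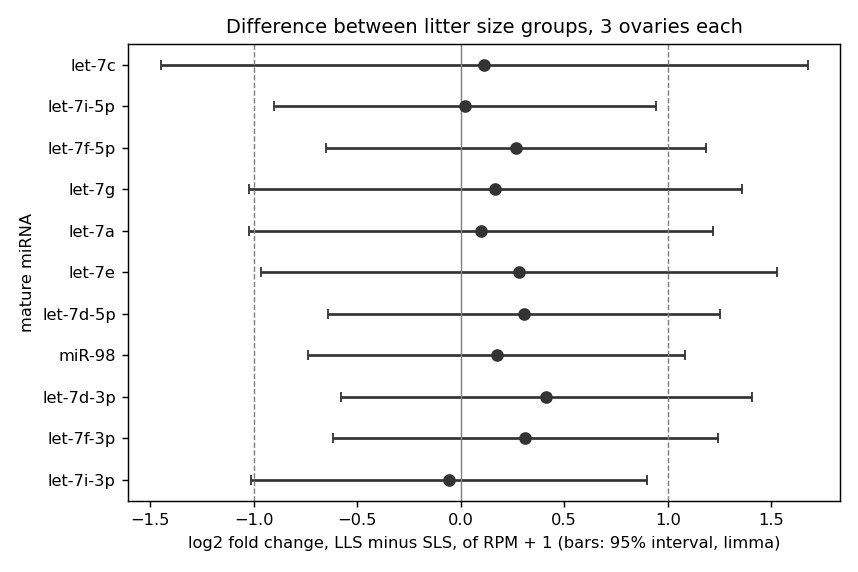
Points are log2 fold changes of RPM + 1, LLS minus SLS, from limma with 3 ovaries per group, and bars are 95% intervals. Every bar crosses 0, and the let-7c bar is the widest, from -1.45 to 1.68.

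Within the family, the make-up changed between ovaries more than between groups. As a share of the family's reads, let-7c was 12.2% in ZD2, 20.3% in ZD3 and 30.8% in ZD12, and 17.3% in ZD5, 14.5% in ZD7 and 30.6% in ZD8. let-7i-5p was 38.7%, 22.4% and 14.4% in the SLS ovaries and 23.2%, 30.7% and 14.4% in the LLS ovaries. let-7i-5p was thus the largest member in 4 ovaries, and let-7c in ZD12 and ZD8. The ratio of let-7c to let-7i-5p was 0.315, 0.906 and 2.14 in SLS and 0.744, 0.473 and 2.12 in LLS. The other upper members kept narrower shares, let-7f-5p between 15.3% and 21.1%, let-7a between 14.2% and 18.9% and let-7g between 12.9% and 19.6%. By the exact permutation test of the groups, p was 0.9 for let-7c, 1 for let-7i-5p and 0.3 for let-7f-5p, and adjusted over the 11 shares the smallest was 0.99. A share does not depend on how the library was scaled, but shares of a whole cannot move independently.

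The ovaries rich in let-7c were also those with the highest levels of theca, oocyte and several granulosa markers. The summed FPKM of the theca markers CYP17A1 and INSL3 was 74.4 in ZD12 and 415 in ZD8, against 9.31 to 18.9 in the other ovaries. The 5 oocyte markers summed to 19.8 FPKM in ZD12 and 99.5 in ZD8, against 6.19 to 10.6, although ZP2 and FIGLA were at 0 in some ovaries. Of the 5 granulosa markers, 3 were also highest in these ovaries. FSHR was at 4.50 and 10.8 FPKM in ZD12 and ZD8 against 0.202 to 2.68 elsewhere, AMH at 7.21 and 12.01 against 0.208 to 1.82, and FOXL2 at 30.6 and 37.8 against 6.11 to 13.8. INHA, which made up most of the list's sum, was highest in ZD12 (726 FPKM) and lowest in ZD8 (66.4 FPKM). The summed list was therefore highest in ZD12 (768 FPKM) and lowest in ZD8 (127 FPKM). The luteal markers were low in ZD8 only and summed to 9167 FPKM in ZD12. Markers of other cell types also set these 2 ovaries apart. MYH11 was at 47.1 FPKM in ZD12 and 190 in ZD8, against 15.5 to 28.4 elsewhere, but ACTA2 and DES did not have this order. VWF (56.9 and 42.2 FPKM) and HBB (52.9 and 28.5 FPKM) were lowest in ZD12 and ZD8, and the endothelial markers PECAM1 and CDH5 were low in ZD8 only. The part of any of these cell types in the let-7c levels was not tested.

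Of the miRNAs that lie beside let-7 hairpins, several were highest in the same ovaries as let-7c. miR-99a-5p, from the hairpin next to MIRLET7C, was at 4530 RPM in ZD2, 4585 in ZD3 and 8433 in ZD12, beside 3308 in ZD5, 4152 in ZD7 and 9328 in ZD8. Its 3p arm had 84.9, 219 and 650 RPM in SLS and 194, 102 and 372 RPM in LLS. ZD12 and ZD8 were the 2 highest ovaries for both arms, as for let-7c. Beside MIRLET7E, miR-125a had 1472, 4160 and 8083 RPM in SLS and 4200, 3225 and 6653 RPM in LLS. Its lowest ovary was ZD2 and its highest ZD12, as for let-7e, but with a range of 5.49-fold. miR-99b on the other side of the same hairpin varied 1.51-fold, from 941 RPM in ZD2 to 1419 in ZD7. miR-100, beside MIRLET7A-1, stayed between 25.1 and 60.3 RPM, with its 2 highest ovaries again ZD12 and ZD8. Hairpins in 1 cluster thus differed in range, and the 5 neighbours are given for their place in the genome only.

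**Figure D4:**
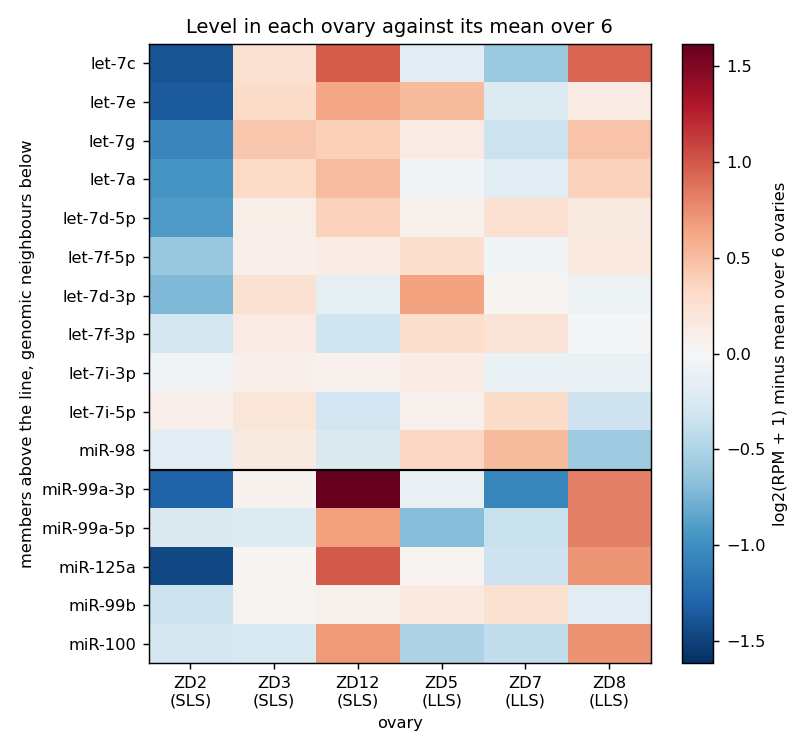
Colours give log2(RPM + 1) in each ovary minus its mean over the 6 ovaries, for the 11 members above the line and the 5 mature miRNAs of neighbouring hairpins below it. let-7c runs from -1.39 in ZD2 to 0.98 in ZD12, while let-7i-5p and miR-98 are below their mean in ZD12 and ZD8.

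The miRNAs whose pattern over the 6 ovaries was most like the summed family were not neighbours of a member hairpin within 10 kb. Likeness was the root mean square difference of centred log2(RPM + 1) over the 6 ovaries, among 210 miRNAs with at least 10 RPM in all libraries. miR-28-3p came first, at 0.09, with 471, 943 and 1097 RPM in SLS and 932, 698 and 1060 RPM in LLS. miR-30c-5p (0.13), miR-361-5p (0.15), miR-92a (0.16) and miR-424-5p (0.18) followed. All 5 were lowest in ZD2. Among the members themselves, let-7a was closest to the sum (0.13) and miR-98 farthest (0.57).

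Arm use was read for the 3 hairpin families with both arms listed, and in each the 5p arm prevailed. For let-7d the 3p arm took 12.1%, 11.8% and 7.75% of the reads in the SLS ovaries and 15.3%, 9.44% and 9.35% in the LLS ovaries. The Wilson 95% intervals, which cover counting error only, were narrow, from 14.6 to 16.0% in ZD5 and from 7.36 to 8.15% in ZD12. For let-7f the 3p share was 0.363%, 0.298% and 0.213% in SLS and 0.291%, 0.344% and 0.255% in LLS. This share is a lower reading of arm use at MIRLET7F-2, since its 5p reads are pooled with those of MIRLET7F-1. For let-7i the 3p share was 0.0704%, 0.0719% and 0.102% in SLS and 0.0814%, 0.0590% and 0.0909% in LLS. ZD12 had the lowest 3p share for let-7d and let-7f and the highest for let-7i. The groups overlapped for all 3, with exact two-sided permutation p of 0.8 for let-7d, 1 for let-7f and 0.7 for let-7i. Among 74 hairpins with both arms listed and at least 100 reads in every library, the minor arm took a median of 7.41%. 3 of the 74 had a smaller minor arm than let-7i, 12 a smaller one than let-7f and 40 a smaller one than let-7d.

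**Figure D5:**
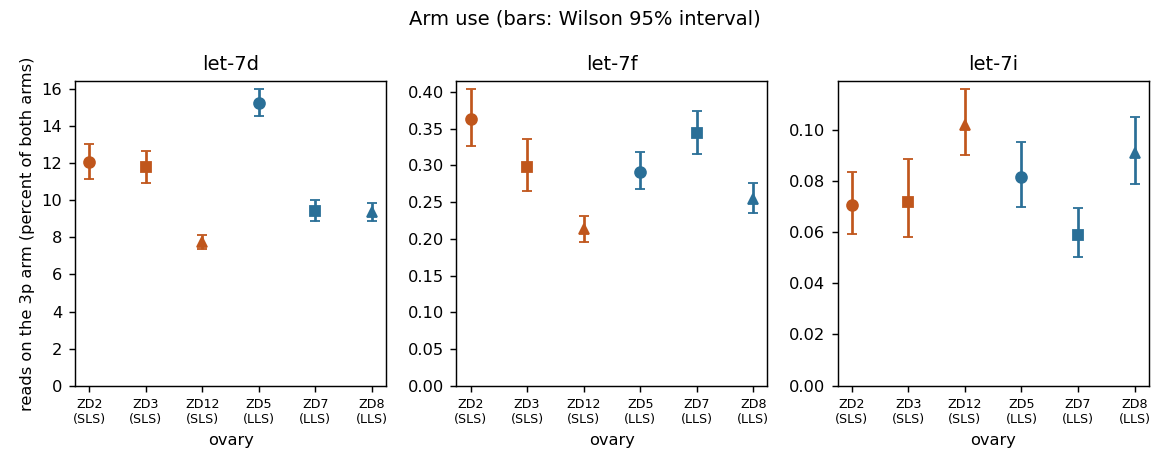
Points give the percent of reads on the 3p arm out of both arms for let-7d, let-7f and let-7i in each ovary, with Wilson 95% intervals, SLS in orange and LLS in blue. The let-7d share runs from 7.75% in ZD12 to 15.3% in ZD5, and each panel has its own axis from 0.

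The total RNA libraries held few reads of the hairpins. Summed over the 10 hairpin rows there were 38 reads in ZD2, 36 in ZD3 and 80 in ZD12, beside 40 in ZD5, 19 in ZD7 and 143 in ZD8. Scaled to depth this was 0.624, 0.696 and 1.51 RPM of the total RNA library in SLS and 0.695, 0.312 and 4.43 RPM in LLS. ZD8 had the highest FPKM for 7 of the 10 hairpins, some of them on few reads, with 4 for MIRLET7I and 6 for MIR98. Of the 12260 tested genes 44.6% were also highest in ZD8, but these had to reach 1 FPKM in 3 libraries and the hairpins did not. ZD8 also had the most miRNA genes of any kind above 0 FPKM, 148 against 77 to 132 in the other ovaries, at the lowest depth. MIRLET7F-1 was listed at 0 in all ovaries. MIRLET7C had 25, 4 and 17 reads in SLS and 4, 5 and 60 in LLS, so its total RNA level was highest in ZD8, at 19.8 FPKM, followed by ZD2 at 4.37 and ZD12 at 3.42. ZD8 and ZD12 were the ovaries with the most mature let-7c, and ZD2 the one with the least. Whether these reads came from precursors or from the introns around the hairpins cannot be told apart. The host of MIRLET7C, LOC106508546, had 1.74, 5.09 and 3.96 FPKM in SLS and 2.69, 1.11 and 18.3 FPKM in LLS. It too was highest in ZD8, while WDR82 (41.2 to 58.8 FPKM) and HUWE1 (53.1 to 73.3 FPKM) varied little. The log2 fold changes of FPKM + 1 were 0.29 ± 0.75 (SE) for LOC106508546, 0.12 ± 0.26 for WDR82 and 0.04 ± 0.27 for HUWE1, none of them called by limma. Without ZD8 these values were -0.64, -0.0090 and -0.087.

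Of the genes that make or block let-7, the LIN28 genes that block it were at or near 0 and those that make it were expressed. LIN28A was listed at 0 FPKM in all 6 ovaries and LIN28B at no more than 0.015 FPKM. TRIM71, a ubiquitin ligase gene that is itself a let-7 target, did not exceed 0.140 FPKM. The uridylyl transferases that add uridines to let-7 precursors, TUT4 (listed as ZCCHC11) and TUT7 (listed as ZCCHC6), were present. ZCCHC11 had 3.62, 7.55 and 7.39 FPKM in SLS and 6.38, 4.16 and 16.3 FPKM in LLS, with ZD8 at 2.80 times the mean of the others. The nuclease gene DIS3L2 had 8.61 to 18.2 FPKM, and DICER1 had 9.13, 12.3 and 11.6 FPKM in SLS and 12.1, 11.7 and 21.6 FPKM in LLS. XPO5, the exporter of precursors, was the most highly expressed of the 15 processing genes, at 34.7 to 54.2 FPKM, and was lowest in ZD8. Of the 15 genes 12 were tested, and 10 of the 12 had their highest level in ZD8, beside 44.6% of all 12260 tested genes. Against SLS, LLS ovaries gave 0 called processing genes by limma, with a median log2 fold change of 0.09 beside 0.02 over all tested genes. The differences were 0.38 ± 0.31 (SE) for DICER1, 0.33 ± 0.48 for ZCCHC11, 0.26 ± 0.45 for ZCCHC6 and -0.24 ± 0.27 for XPO5. Without ZD8 the values for ZCCHC11 and ZCCHC6 turned to -0.17 and -0.22, and those for DICER1 and XPO5 were 0.11 and -0.12.

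Known let-7 targets were read from a list of 34 genes. On the Sscrofa11.1 annotation, 30 of them had a 3′ untranslated region, and 20 of these (66.7%) held the letters CTACCTC, the reverse complement of the seed, beside 8.45% of 18167 genes with such a region. Only the mRNA strand was searched. The listed genes are in the list because they are known targets, and their regions are longer (median 2176 against 942 nt), so the share is a description. TRIM71 held 6 matches, NR6A1 5 and IGF1R 3. Matches in genes with low levels here and in genes that were expressed throughout are shown 5′ to 3′ on the mRNA strand, with the seed match in capitals.
HMGA2 (chr5:30329533-30329555, plus strand): gccaacattcaatttCTACCTCa
LIN28B (chr1:71295245-71295267, plus strand): ccctggttgggacgtCTACCTCa
IGF2BP1 (chr12:25244592-25244614, plus strand): tgtgcgcgaagtaaaCTACCTCa
IGF2BP3 (chr9:92106465-92106487, minus strand): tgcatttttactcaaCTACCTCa
IGF1R (chr1:137387607-137387629, minus strand): ttcccagacatttatCTACCTCa
TGFBR1 (chr1:240914184-240914206, plus strand): gggaggtcaattgttCTACCTCa
INSR (chr2:71937484-71937506, plus strand): tttttccagcacagtCTACCTCa

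HMGA2 and the IGF2BP genes were low, and none of them reached 1 FPKM in 3 libraries. IGF2BP1, an RNA-binding protein of early development, was listed at 0 in all ovaries, and HMGA2, a chromatin protein gene, had 0 to 0.042 FPKM in 5 ovaries and 0.498 in ZD8. IGF2BP2 (0.112 to 0.178 FPKM in 5 ovaries and 0.927 in ZD8) and IGF2BP3 (0.043 to 0.429 and 1.92) had the same highest ovary. Receptor genes with a seed match were expressed throughout. IGF1R had 29.1, 30.8 and 26.5 FPKM in SLS and 30.4, 29.4 and 37.9 FPKM in LLS, a narrow range. TGFBR1 had 23.4, 54.3 and 20.6 FPKM in SLS and 66.8, 52.1 and 17.4 FPKM in LLS, lowest in ZD8 and ZD12. INSR was at 43.1 FPKM in ZD8 and at 11.9 to 20.6 in the other ovaries.

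No target gene was called between the groups. Of the 34 genes 26 passed the filter of 1 FPKM in 3 libraries, and the 8 others included HMGA2, LIN28A, LIN28B and the IGF2BP genes. limma on log2(FPKM + 1) called 0 of the 26, beside 0 of 12260 tested genes (0%), with 0 and 216 at an unadjusted p under 0.05. Non-overlapping groups were seen for 0 of the 26, beside 628 of the 12260 (5.12%). 16 of the 26 were higher in LLS, beside 52.6% of all tested genes, with a median log2 fold change of 0.06 beside 0.02 over all tested genes. The largest differences were those of THBS1 (-0.74 ± 0.56, SE), MYCN (0.50 ± 0.32) and CCND1 (-0.48 ± 0.44). THBS1, a matrix glycoprotein gene, had 815 FPKM in ZD2 against 156 to 292 in the other ovaries, and without ZD2 its difference was -0.19. CCND1, the cyclin D1 gene, had 8.94 FPKM in ZD8 against 22.3 to 32.7 in the other ovaries, and without ZD8 its difference was 0.016. MYCN had 1.06, 0.992 and 1.80 FPKM in SLS and 1.37, 2.16 and 3.33 in LLS, with overlapping groups, and without ZD8 its difference was 0.28. The annotated regions of THBS1, MYCN and CCND1 held 0 seed matches. The 13 tested targets that held a seed match had a median of 0.10, and 10 of the 13 were above 0, beside 0.02 and 52.6% over all tested genes. Of these 10, ARID3A, ARID3B, IGF1R, INSR, IRS2 and PLAGL2 were highest in ZD8, an LLS ovary. TGFBR1, FAS, CDC34 and ACVR1B were highest in ZD5 or ZD7. IRS2 had 24.6 FPKM in ZD8 but 3.96 in ZD5 and 3.09 in ZD7, under every SLS ovary (4.21 or more). INSR, at 13.4 and 11.9 FPKM in ZD5 and ZD7, was also under every SLS ovary (14.4 or more). How far the median and the count above 0 rested on ZD8 was not tested.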

How the data were processed

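Small RNA and total RNA libraries of 6 ovaries were analysed, 1 of each per ovary. Per the submitters' processing notes, small RNA reads were mapped with BWA and total RNA reads with HISAT2, to Sscrofa11.1. The miRNA values the authors deposited are RPM (named TPM), and all 2618 values above 0 gave whole reads within 0.001. The gene values the authors deposited are FPKM. The miRNA annotation and mismatch setting are not given in the sources used here. Levels were compared as log2(value + 1) with limma 3.58.1 (trended variance, Benjamini-Hochberg adjustment over all features), for features that reached 1 RPM (or 1 FPKM) in 3 libraries or more. edgeR 4.0.16 and DESeq2 1.42.0 on recovered reads (R 4.3.3) were alternatives. On simulated reads of 350 miRNAs (dispersion 0.3), with 200 shifted by a log2 fold change of 2, limma called 131 of the 200, and with a log2 fold change of 3 it called 197. An adjusted p passes more easily when so many features are shifted, and all simulated miRNAs had the same dispersion. These counts therefore do not give the recovery for a few changed miRNAs in the real libraries. The members, the lists and the cell type markers were chosen with earlier results of these data known. The named miRNAs and genes were all members, miRNAs of hairpins within 10 kb on the same strand, the 5 miRNAs most like the family sum, host genes, and lists of let-7 processing and target genes. 3 reads were 0.304 to 0.848 RPM. circRNA counts were not analysed here.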

Additional observations from a re-analysis of the deposited data

How the results depend on the processing

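No member was called under any of the 20 settings tried, among them other pseudocounts, filters, scalings and variance models, edgeR, DESeq2 and the loss of each ovary, and the adjusted p of a member ran from 0.604 to 1. The count of called miRNAs was 0 in each, except that leaving out ZD2 and ZD8 together, an alternative chosen after seeing the data, gave 3 calls by limma, 0 of them members. With these 2 ovaries left out, let-7a was at -0.51, let-7c at -0.99, let-7d-5p at -0.070, let-7e at -0.31 and let-7g at -0.51 on the log2 scale. In the same setting let-7d-3p was at 0.30, let-7f-3p at 0.34, let-7f-5p at 0.015, let-7i-5p at 0.24 and miR-98 at 0.46. let-7i-3p was at -0.063 there. With array weights, let-7a was at -0.16, let-7c at -0.28 and let-7g at -0.15. let-7i-5p was at -0.020 with TMM scaling and by both edgeR tests, and let-7i-3p at 0.072 after quantile normalization. let-7e, at 0.28 in the main fit, was at 0.080 by both edgeR tests, 0.12 by DESeq2 and 0.099 after quantile normalization. Leaving out each ovary gave log2 fold changes of -0.35 to 0.37 for let-7a, -0.55 to 0.63 for let-7c, 0.16 to 0.64 for let-7d-3p, -0.077 to 0.57 for let-7d-5p, -0.32 to 0.66 for let-7e, 0.030 to 0.40 for let-7f-5p, -0.33 to 0.43 for let-7g, -0.13 to 0.19 for let-7i-5p and -0.036 to 0.51 for miR-98. For let-7f-3p this range was 0.23 to 0.46, and for let-7i-3p it was -0.13 to -0.019. The cause of the turns in sign was not tested. Leaving out each ovary gave differences, LLS minus SLS, of -2.07 to 2.18 percentage points for the family's share of the library, and for the 3p share of -1.14 to 1.83 points for let-7d, -0.034 to 0.041 for let-7f and -0.011 to 0.0060 for let-7i. For shares within the family these differences were -1.70 to 0.66 points for let-7a, -5.18 to 4.56 for let-7c, -1.34 to 1.98 for let-7g and -7.73 to 4.43 for let-7i-5p. For let-7f-5p the difference stayed above 0, at 0.82 to 3.37 points. For genes, the count of called list genes was 0 throughout. Array weights gave -0.11 for ZCCHC11, -0.11 for ZCCHC6, 0.032 for CCND1, -0.046 for WDR82, -0.50 for LOC106508546 and -0.054 for HUWE1. Leaving out each ovary gave -0.17 to 0.71 for ZCCHC11, -0.22 to 0.61 for ZCCHC6, 0.11 to 0.53 for DICER1, -0.39 to -0.12 for XPO5, -1.02 to -0.19 for THBS1, 0.28 to 0.71 for MYCN, -0.87 to 0.016 for CCND1, -0.0090 to 0.22 for WDR82, -0.64 to 0.95 for LOC106508546 and -0.087 to 0.14 for HUWE1. No paired analysis was possible because the ovaries come from different sows. With 3 ovaries a group, the 95% interval of every member except let-7i-5p included a 2-fold change in at least 1 direction. The least covered member, let-7i-3p, had 87 to 241 reads per library.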
